A study of Mus musculus with 2 samples.

Results

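The 10 genes described here encode growth cone and cytoskeletal proteins: Gap43, Stmn1, Stmn2, Stmn4, Crmp1, Dpysl3, Dpysl5, Dbn1, Tubb3 and Mapt. They were chosen by symbol, with earlier results of these data known, and all 10 were found among the 32534 features of both libraries. A growth cone is the motile tip of an extending axon, where actin filaments push the edge forward and microtubules advance from the shaft behind it. Gap43 protein sits at its membrane, stathmins and collapsin response mediator proteins act on microtubule ends, drebrin binds actin, and Tubb3 and Mapt proteins form and bind the axonal microtubules. In the olfactory epithelium, sensory neurons are made throughout life from basal cells, and each new neuron sends an axon to the olfactory bulb. Gap43 marks the immature neuron and Omp, the olfactory marker protein, the mature one.

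The data were single-cell 3′ RNA-seq libraries with unique molecular identifiers (UMIs, tags that count RNA molecules) from the dissected and enzymatically dissociated olfactory epithelium of female mice, 1 library per group. The transgenic library came from mice of 9 weeks with the genotype Tg(Or8a1-OR1A1,-MAPT/mCherry)D736Feins/+ and the strain label ending in D736Feins/J. The name of this transgene holds the odorant receptors Or8a1 and OR1A1, MAPT (tau) and the red fluorescent protein mCherry. The other library came from mice of 8 weeks with the genotype WT, and their strain label crosses 10G4-V2.2-#7/Jax with Bl6/129SF1/J. The labels used here do not say how many animals went into a library. Genotype, strain, age and library cannot be told apart with 1 library each, so no test between them is possible. All intervals below are exact 95% intervals that cover counting error only.

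The libraries held 70572741 transgenic and 55701219 wild-type UMIs, and 1745 and 1117 barcodes were kept as cells, with medians of 14440 and 12983 UMIs. Of these, 1 barcode sequence was shared by both libraries. Cells of the neuronal clusters were put in 5 stages by 4 genes. Omp-high cells held at least 1000 CPM of Omp (CPM scales the UMIs of a gene to a common total of all UMIs of the cell or stage) and under 500 CPM of Gap43, and Gap43 with Omp cells reached both. Among cells under 1000 CPM of Omp, Tex15 cells had at least 3 UMIs of Tex15, Neurod1 cells at least 3 UMIs of Neurod1 without Tex15, and Gap43-high cells at least 500 CPM of Gap43 without either. In this order from precursor to mature neuron (Neurod1, Tex15, Gap43-high, Gap43 with Omp, Omp-high), the stages held 61, 100, 138, 117 and 669 transgenic cells and 11, 16, 32, 29 and 456 wild-type cells. Because Gap43 sets 3 of these gates, its own stage levels only describe the gates, and counts below are read over the other 9 genes. None of the 10 genes was used to build or name the clusters.

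Genes that set no gate followed the order of the stages. Top2a, a gene of dividing cells, had 689 and 691 CPM in Neurod1 cells (transgenic and wild type, the order used throughout) and at most 0.682 CPM in Omp-high cells. Gng8, a G protein subunit of immature neurons, was highest in Gap43-high cells at 1054 and 994 CPM, the latter beside 991 CPM in wild-type Tex15 cells. Cnga2, a subunit of the olfactory transduction channel, was highest in Omp-high cells at 582 and 658 CPM. The summed level of 6 sustentacular cell markers ranged from 20.3 to 85.8 CPM over the stages. Other lists stood higher, among them 5 ciliated cell markers at 93.6 to 589 CPM, highest in Omp-high cells of both libraries. The 6 erythroid markers ranged from 255 to 7009 CPM. The 5 B cell markers ranged from 1004 to 3114 CPM, with 3 or 4 of the 5 at 0 UMIs in each stage. Some of the marker lists of other cells that differed between the libraries are given beside the results they go with. The red cell gene Hbb-bs stood at 3648 CPM in transgenic Neurod1 cells, where 1 cell held 4593 of 4677 UMIs. No value of the 10 genes left its counting interval without the cells of 50 or more Hbb-bs UMIs.

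The promoter window, the 250 bases before the annotated start, was found for 4 of the 10 genes in the RefSeq table (build GRCm38.p6, older than the GRCm39 build of the counts). The search did not cover every chromosome, so whether the RefSeq table holds a start of the other genes is not settled here. All 4 found are shown, and they were not chosen by the level of the gene. Of these, Dpysl5, Dbn1 and Tubb3 had their highest level in Neurod1 or Tex15 cells, while Crmp1 differed most between the libraries in mature neurons. Capitals mark matches on either strand to the GC box GGGCGG and, in Dpysl5, to the early B-cell factor motif, TCCC and GGGA with any 2 bases between them. Each is written 5′ to 3′ on the gene's strand.
Dpysl5 (chr5:30711314-30711563, + strand): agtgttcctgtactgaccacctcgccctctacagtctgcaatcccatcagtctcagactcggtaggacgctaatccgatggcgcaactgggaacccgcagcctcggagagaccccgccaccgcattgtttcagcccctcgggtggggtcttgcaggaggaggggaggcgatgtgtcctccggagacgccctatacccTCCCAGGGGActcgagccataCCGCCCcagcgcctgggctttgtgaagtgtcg
Dbn1 (chr13:55488077-55488326, - strand): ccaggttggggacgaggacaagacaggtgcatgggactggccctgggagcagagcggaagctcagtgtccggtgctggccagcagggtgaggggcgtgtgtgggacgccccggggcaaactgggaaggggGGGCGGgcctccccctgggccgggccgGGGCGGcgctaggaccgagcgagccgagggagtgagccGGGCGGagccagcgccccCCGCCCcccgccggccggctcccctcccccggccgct
Tubb3 (chr8:123411303-123411552, + strand): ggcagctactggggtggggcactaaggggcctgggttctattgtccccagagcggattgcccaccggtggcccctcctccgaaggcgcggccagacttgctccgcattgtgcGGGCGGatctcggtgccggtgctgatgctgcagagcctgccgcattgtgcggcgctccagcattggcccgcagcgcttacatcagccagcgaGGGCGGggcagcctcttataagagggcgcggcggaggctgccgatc
Crmp1 (chr5:37241808-37242057, + strand): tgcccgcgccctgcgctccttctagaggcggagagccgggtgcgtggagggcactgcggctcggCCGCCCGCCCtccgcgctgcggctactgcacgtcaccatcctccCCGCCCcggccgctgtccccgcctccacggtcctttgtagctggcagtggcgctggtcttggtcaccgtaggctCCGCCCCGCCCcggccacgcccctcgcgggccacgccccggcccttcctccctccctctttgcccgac
A second annotated start of Crmp1 (chr5:37245514-37245763, + strand) also held 2 matches to GGGCGG. That motif was in all 5 windows and in 32.7% of 32851 promoter windows of the same length. The early B-cell factor motif, matched in Dpysl5 as TCCCAGGGGA 53 bases before the start, was in 0.779% of all windows. The E-boxes CAGATG and CAGCTG, the homeodomain motif TAATTA and the motif TATAAA had no match in the 5 windows. The windows held 59.6% to 77.2% G and C, against a median of 52.4% over all windows. These matches describe the letters in the windows only.

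Gap43, a membrane protein of the growth cone, was highest in the Gap43-high stage, as its gates require. Its level was 36.7, 251, 3331, 1444 and 42.4 CPM along the 5 transgenic stages. In the wild type it was 39.9, 262, 2918, 1751 and 24.2 CPM. In Tex15 cells, whose gate does not use it, Gap43 had a UMI in 62.2% and 62.5% of cells thinned to 7900 UMIs, against 7.71% and 3.13% of thinned non-neuronal cells (72.0%, 81.3%, 13.2% and 5.33% unthinned).

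Stmn1 and Stmn2, stathmins that bind tubulin dimers and destabilise microtubules, were both highest in Gap43-high cells of both libraries. Stmn1 stood at 3085, 2828, 5863, 2054 and 196 CPM along the transgenic stages and at 3595, 3566, 5978, 2825 and 156 CPM along the wild-type ones. It was thus already high in dividing precursors and lowest in Omp-high cells. Stmn2, the neuronal stathmin, stood at 1364, 2281, 3672, 1856 and 486 CPM in the transgenic library. Its wild-type levels were 1666, 3269, 3692, 2378 and 378 CPM. Within the Neurod1 stage Stmn2 was uneven: the 10th percentile of transgenic cells was 0 CPM, the median 1308 CPM and the 90th percentile 3475 CPM.

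Stmn4, a further neuronal stathmin, ran later than its relatives. It had 3 UMIs over the 61 transgenic Neurod1 cells (2.34 CPM) and 0 UMIs over the 11 wild-type ones, a count that allows up to 12 CPM if 3 counts are taken as its limit. It then stood at 34.5, 256, 444 and 223 CPM in the later transgenic stages. The wild-type levels were 27.6, 262, 340 and 261 CPM. Stmn4 was highest where Gap43 and Omp were both present, but the wild-type intervals of that stage (292 to 393 CPM) and of Gap43-high cells (219 to 312 CPM) overlapped. Cluster 3, led by Calb2, held 77 of the 117 transgenic and 16 of the 29 wild-type cells of the Gap43 with Omp stage. Without it, Stmn4 in that stage was 398 CPM (transgenic) and 256 CPM (wild type), and the wild-type peak moved to Gap43-high cells at 262 CPM.

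The collapsin response mediator proteins Crmp1, Dpysl3 (CRMP4) and Dpysl5 (CRMP5) relay guidance signals to microtubules and actin, and their genes were staggered. Dpysl5 came first, with 349, 400, 256, 107 and 34.7 CPM along the transgenic stages, and 435, 597, 268, 116 and 36.8 CPM along the wild-type stages. The intervals of its Neurod1 and Tex15 levels overlapped in both libraries. Dpysl3 stood at 605, 980, 1268, 229 and 17.3 CPM in the transgenic stages and at 667, 1153, 1332, 325 and 17.0 CPM in the wild-type ones. It thus dropped from the Gap43-high peak to near the bottom of its range by the Omp-high stage. In the wild type the intervals of its Tex15 (1033 to 1283 CPM) and Gap43-high levels (1232 to 1438 CPM) overlapped. Crmp1 was highest in Gap43-high cells, with 54.6, 142, 206, 96 and 36.8 CPM in transgenic stages. In the wild type, where its Tex15 and Gap43-high intervals overlapped, Crmp1 stood at 63.9, 179, 240, 142 and 70.4 CPM.

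Dbn1 encodes drebrin, which binds and bundles actin filaments and links them to microtubules entering the growth cone. It ran opposite to Stmn4, with its highest level in Neurod1 cells of both libraries. Its levels were 419, 215, 102, 43.1 and 19.1 CPM along the transgenic stages. They were 491, 324, 120, 42.9 and 16.7 CPM along the wild-type stages, so that each stage lay below the one before it.

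Tubb3, the neuronal beta-tubulin, was high in every stage and Mapt, which encodes the axonal microtubule-binding protein tau, was high in the middle stages only (Tex15 and Gap43-high). Tubb3 stood at 1454, 1091, 1176, 591 and 353 CPM along the transgenic stages and, in the wild type, at 1534, 1094, 1226, 694 and 357 CPM. In transgenic Neurod1 cells only Stmn1 had a higher level among the 10 genes, and 3′ UMI counts do not scale with transcript length. Mapt had 4 transgenic and 2 wild-type UMIs in Neurod1 cells, or 3.12 and 7.99 CPM. It stood at 121, 156, 30.4 and 6.37 CPM in the later transgenic stages and at 183, 171, 59.7 and 9.54 CPM in the wild-type ones. The wild-type intervals of its Tex15 and Gap43-high levels overlapped.

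**Figure D1:**
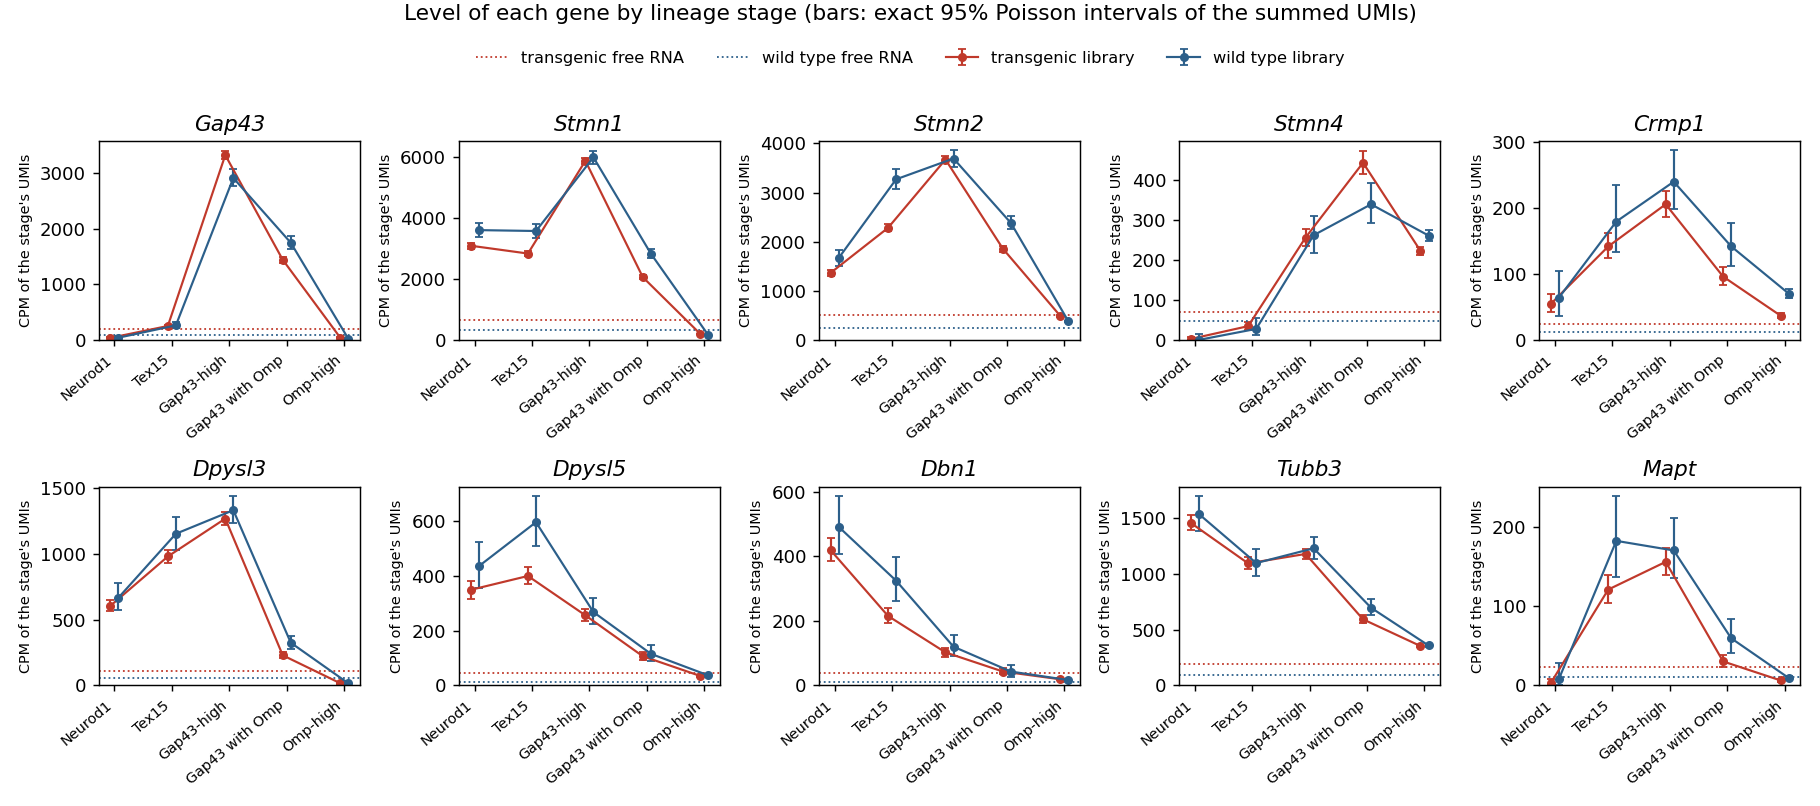
CPM of each of the 10 genes (vertical axis, linear, from 0) in the 5 stages (horizontal axis) of the transgenic and wild-type libraries, with exact 95% Poisson intervals of the summed UMIs and the level in free RNA as dotted lines. Dbn1 goes down from 419 and 491 CPM in Neurod1 cells, Stmn1, Stmn2 and Dpysl3 peak in Gap43-high cells, and Stmn4 peaks in Gap43 with Omp cells at 444 and 340 CPM. For wild-type Dpysl3 and Stmn4 the interval of the peak overlaps that of the next highest stage.

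The highest stage was the same in both libraries for 9 of the 10 genes, all but Mapt, with Gap43 among the 9 as its gates require. The full order of stages was the same for 7 genes, and Gap43 was not among them. Of the 9 genes other than Gap43, Gap43-high was the highest stage for 5 in the transgenic and for 4 in the wild-type library. Of 40 neighbouring pairs in the orders of the 10 genes, those of Gap43 included, the intervals overlapped in 4 transgenic and 13 wild-type pairs.

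Against mature neurons, 8 of the other 9 genes were at least 2-fold higher in Gap43-high cells of each library, beside 14.7% of 7382 measured transgenic and 8.96% of 6834 measured wild-type genes. None of the 9 was as much lower, beside 11.7% and 15.2%. Measured genes reached 20 CPM and 50 UMIs in 1 of the stages compared, and log2 ratios were taken with 1 UMI added. The exception was Stmn4, with log2 ratios of 0.20 (interval 0.06 to 0.34) and 0.01 (-0.27 to 0.26). Dpysl3 had the largest ratios of these 9 genes, 6.19 (5.97 to 6.43) and 6.28 (5.98 to 6.61). Stmn1 followed with 4.90 and 5.26, and Mapt with 4.6 and 4.15. Tubb3 was the lowest of the 8, with 1.74 in the transgenic library, and Crmp1 and Tubb3 both came to 1.78 in the wild type. The median over the 9 genes was 2.88 and 2.87, against 0.20 and 0.06 over all measured genes.

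Against Neurod1 precursors the genes parted. Of the 9 genes, 5 were at least 2-fold higher in transgenic Gap43-high cells (Stmn2, Stmn4, Crmp1, Dpysl3 and Mapt), beside 24.9% of 6898 measured genes. In the wild type 4 of the 9 were (the same without Dpysl3, at 0.99), beside 27.2% of 2123. The median over the 9 genes was 1.07 and 0.99, against 0.29 and 0.28 over all measured genes. Dbn1 was lower by at least 2-fold in both, with log2 ratios of -2.03 (-2.26 to -1.80) and -2.02 (-2.51 to -1.57), where 10.5% and 8.95% of measured genes were as much lower. Stmn1, Tubb3 and Dpysl5 were within 2-fold, and Tubb3 (-0.31 and -0.32) and Dpysl5 (-0.45 and -0.70) were on the lower side in both. Stmn4 had a transgenic ratio of 6.36 (5.22 to 9.06), resting on 3 Neurod1 UMIs, and in the wild type had 129 UMIs in Gap43-high and 0 in Neurod1 cells. Mapt had ratios of 5.33 (4.28 to 7.53) and 3.85 (2.52 to 7.49). With all barcodes of at least 2000 UMIs clustered, 3 of the 9 were 2-fold higher in the transgenic library and 2 were 2-fold lower in each.

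When Omp was already on, cells that still held Gap43 kept most of these genes above their mature level. Of the 9 genes, 7 were at least 2-fold higher in Gap43 with Omp than in Omp-high cells of the transgenic library and 5 in the wild type, beside 4.75% and 3.83% of measured genes. None was as much lower, beside 3.14% and 6.71%. Dpysl3 had log2 ratios of 3.72 (3.47 to 3.99) and 4.25 (3.89 to 4.62), and Stmn1 of 3.39 and 4.18. Tubb3, at 0.75 and 0.96, and Stmn4, at 0.99 and 0.39, were under 2-fold in both libraries. Dbn1 and Mapt did not reach the minimum level in the wild-type comparison. Omp itself was lower in these cells (3163 and 2632 CPM) than in Omp-high cells (5009 and 5032 CPM).

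The number of the 9 genes other than Gap43 that were seen in a single cell was highest in the middle stages. Cells were thinned to 7900 UMIs each. Shallower cells were left out, 34 and 45 of the Omp-high cells, at most 8 of any other stage, and 109 and 116 non-neuronal cells. The median cell then held 6, 7, 7, 6 and 4 of the 9 genes along the transgenic stages and 6, 7, 8, 6 and 4 along the wild-type ones. Non-neuronal cells held a median of 1 in both libraries.

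Stmn2 and Tubb3 had a UMI in most mature neurons. Among thinned Omp-high cells, Stmn2 had a UMI in 88.5% of transgenic and 85.2% of wild-type cells, and Tubb3 in 86.6% and 88.8%. The unthinned shares were 93.9% and 90.6% for Stmn2 and 93.1% and 91.7% for Tubb3. In non-neuronal cells the thinned shares were 16.0% and 9.84% for Stmn2 and 8.09% and 4.92% for Tubb3. Dpysl3 and Mapt showed the reverse, with thinned shares in Omp-high cells (9.61% and 8.76% for Dpysl3, 4.25% and 5.60% for Mapt) below those in non-neuronal cells (32.4% and 20.1%, and 20.6% and 11.9%). Median depth was 13941 and 12502 UMIs in Omp-high cells and 13555 and 12556 UMIs in non-neuronal cells. The non-neuronal cells include fibroblast-like and sustentacular-like cells with levels of their own in these genes. Free RNA held 109 and 56.3 CPM of Dpysl3 and 23.3 and 10.8 CPM of Mapt, against 17.3 and 17.0 CPM and 6.37 and 9.54 CPM in Omp-high cells. For Stmn2 it held 497 and 243 CPM against 486 and 378 CPM, and for Tubb3 193 and 93.6 CPM against 353 and 357 CPM. The part of free RNA in these shares was not tested. Within Omp-high cells the level was uneven: Dpysl3 stood at 60.8 and 33.9 CPM in cluster 3 against 8.42 and 8.51 CPM in cluster 0, and Mapt at 20.3 and 31.9 CPM against 4.01 and 7.24 CPM.

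**Figure D2:**
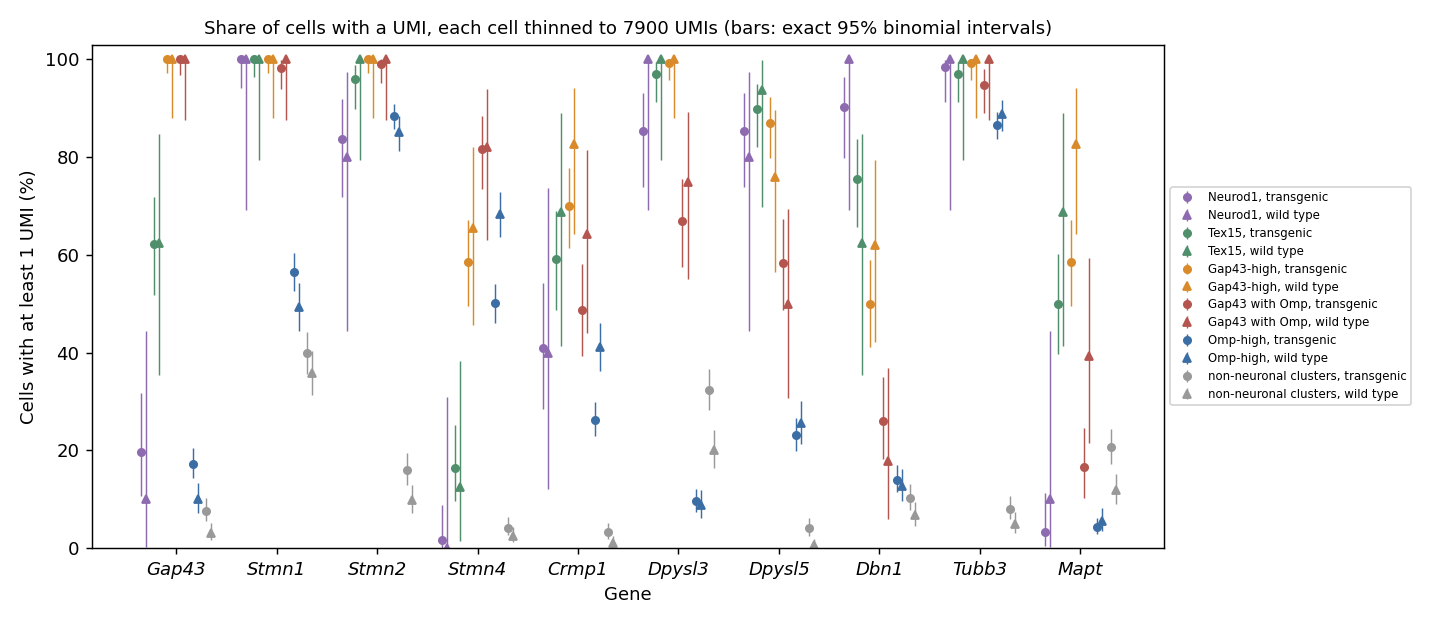
Share of cells with at least 1 UMI of each gene (vertical axis, percent) after thinning each cell to 7900 UMIs, by stage and library, with non-neuronal cells in grey and exact 95% binomial intervals. Stmn2 and Tubb3 keep shares from 85.2% to 88.8% in Omp-high cells, whereas Dpysl3 and Mapt lie below their grey points there.

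Grouping the immature and mature neurons by Omp alone, without any Gap43 gate, gave the same contrast between genes. Its cells and its cut at 1000 CPM of Omp were largely those of the stages, so it is a finer view and not a separate check. This grouping was chosen after the stage levels were seen. The 7 groups ran from under 1000 CPM of Omp to 6000 CPM and over, and left out Neurod1 and Tex15 cells. Dpysl3 went from 1246 CPM in the lowest to 6.59 CPM in the highest Omp group of the transgenic library, and from 1200 to 8.25 CPM in the wild type. Gap43, Stmn1, Stmn2 and Dpysl3 were lower at each of the 6 steps in both libraries. Tubb3 had the smallest drop of the genes other than Stmn4, from 1164 to 329 CPM and, in the wild type, from 1120 to 306 CPM.

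Stmn4 had its highest level in an intermediate Omp group. In the transgenic library that was the group from 1000 to 2000 CPM of Omp, at 525 CPM, against 265 CPM below it and 195 CPM in the highest group. The wild-type maximum of Stmn4 came in the group from 2000 to 3000 CPM of Omp, at 375 CPM, with 234 CPM in the lowest and 263 CPM in the highest group. The groups held 36 to 227 transgenic and 16 to 153 wild-type cells, and the wild-type groups from 1000 to 3000 CPM held fewer than 20 cells each.

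**Figure D3:**
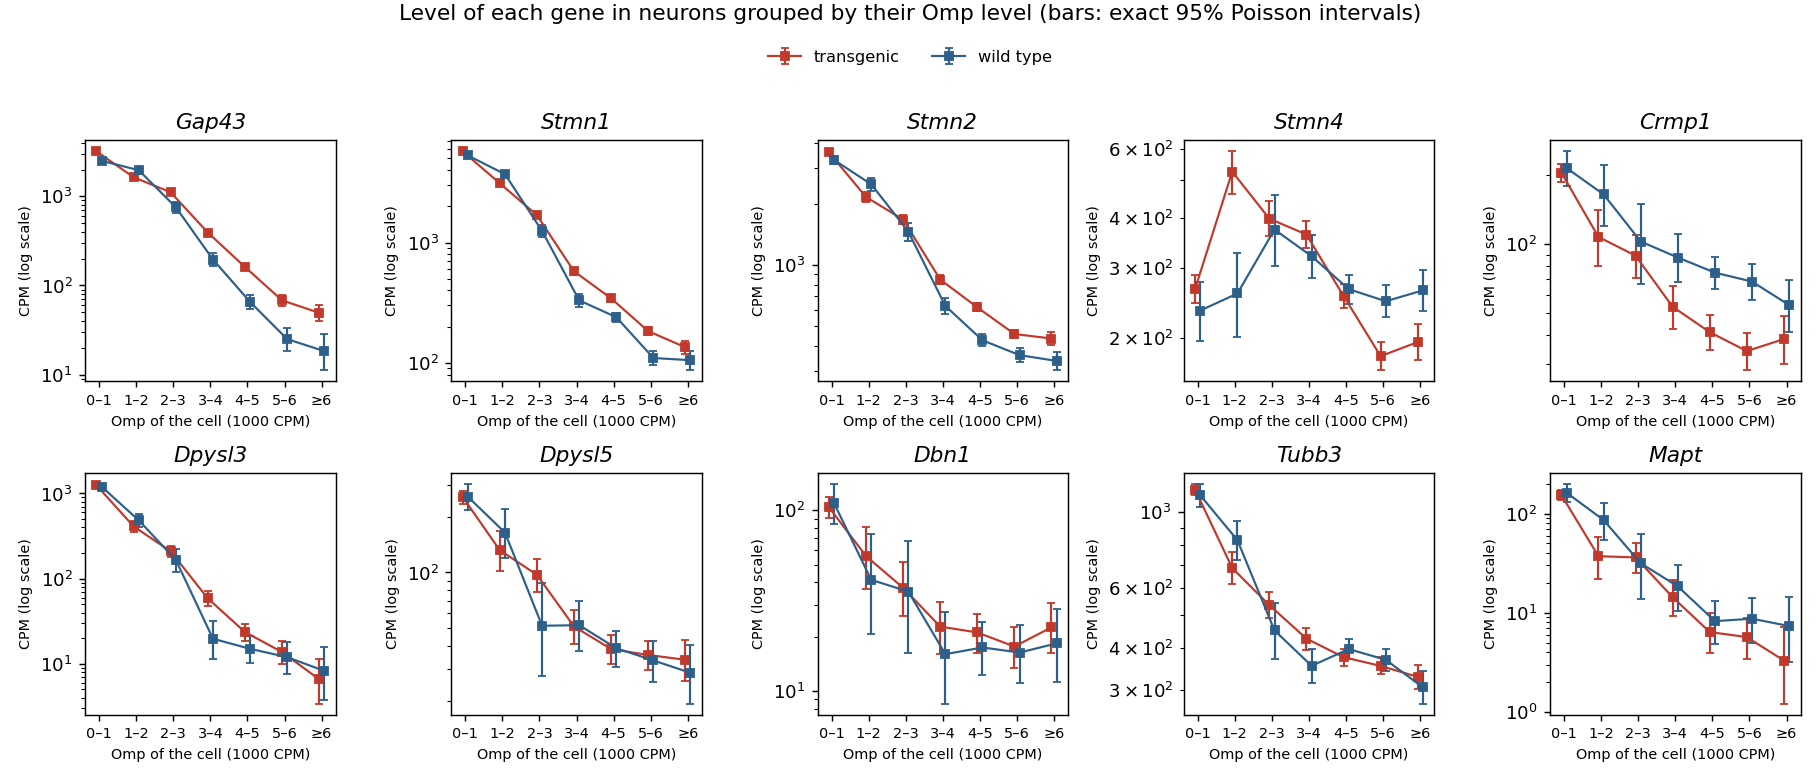
CPM of each gene (vertical axis, log scale) in immature and mature neurons grouped by the Omp level of the cell (horizontal axis, 1000 CPM), with exact 95% Poisson intervals. Dpysl3 spans 1246 to 6.59 CPM in the transgenic library, whereas Tubb3 spans 1164 to 329 CPM and Stmn4 has a maximum at intermediate Omp.

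Between the libraries, none of the 9 genes other than Gap43 differed 1.5-fold in Gap43-high cells, beside 13.6% of 6520 measured genes (7.32% higher and 6.27% lower in the transgenic library), and each of the 9 intervals of the transgenic over wild-type ratio held 0. Gap43, gated in this stage, had a log2 ratio of 0.19 (0.11 to 0.27). In Neurod1 cells 0 of 7 measured members passed 1.5-fold, beside 17.8% of measured genes (9.24% higher, 8.57% lower). All 7 ratios were below 0, from -0.33 to -0.08, and 3 intervals were clear of 0 (Stmn1 at -0.22, Stmn2 at -0.29 and Dpysl5 at -0.33). The median of all 10 genes was -0.26, against -0.02 over all measured genes. How many of all measured genes lay below 0, or had intervals clear of 0, was not counted in any stage. The summed fibroblast markers stood at 188 and 7.99 CPM, the erythroid ones at 7009 and 340 CPM and the neutrophil ones at 6.24 and 55.9 CPM in Neurod1 cells. Their part in the ratios was not tested.

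In Tex15 cells, 9 of the 10 ratios were below 0, 6 of them with intervals clear of 0, again without a share over all genes beside them. Dbn1 (log2 ratio -0.60, interval -0.93 to -0.25) and Mapt (-0.61, -1.04 to -0.12) were lower in the transgenic library by over 1.5-fold, beside 18.4% of 4877 measured genes (10.1% higher, 8.26% lower). The median of the 10 was -0.35, against -0.02 over all measured genes. The Tex15 stage held 100 transgenic and 16 wild-type cells, and their make-up differed: Top2a stood at 190 and 3.45 CPM and Neurod1 at 330 and 735 CPM. The summed pericyte or smooth muscle markers stood at 296 and 17.3 CPM and the neutrophil ones at 7.02 and 48.3 CPM. The part of these levels in the differences was not tested. With the gates applied to all kept cells, not only neuronal clusters, the ratios turned to 0.40 for Dbn1 and 1.11 for Mapt.

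In Gap43 with Omp cells, 9 of the 10 ratios were again below 0, 7 of them with intervals clear of 0. Gap43, gated in this stage, was in both counts at -0.28 (-0.38 to -0.17). The median of the 10 was -0.32, against -0.015 over all measured genes. Mapt passed 1.5-fold at -1.0 (-1.61 to -0.31), beside 13.2% of 6145 measured genes (7.01% higher, 6.15% lower). Stmn4 was the exception at 0.38 (0.15 to 0.62). Mapt was no longer past 1.5-fold with the gates over all kept cells (-0.39) or with both gates doubled (-0.58), and stood at -0.65 without cluster 3, where Stmn4 was at 0.62. Omp was higher in these transgenic cells (3163 against 2632 CPM), and Gng8 lower (202 against 437 CPM). The summed Bowman's gland markers stood at 63.2 and 211 CPM and the neutrophil ones at 5.39 and 54.1 CPM. The part of these levels in the differences was not tested.

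In Omp-high cells, Crmp1 was the 1 of 6 measured genes other than Gap43 past 1.5-fold, beside 10.5% of 7046 measured genes (3.48% higher, 7.0% lower). Crmp1 was lower in the transgenic library, at 36.8 CPM (33.0 to 40.8) against 70.4 CPM (63.8 to 77.5), a log2 ratio of -0.94 (-1.15 to -0.73). A Crmp1 UMI was found in 26.3% of thinned transgenic and 41.1% of thinned wild-type Omp-high cells. By mature cluster, Crmp1 stood at 35.7 against 80.9 CPM in cluster 0, at 32.7 against 58.6 CPM in cluster 1 and at 37.8 against 70.2 CPM in cluster 2. In cluster 3 the levels were 52.5 and 53.8 CPM, with overlapping intervals. Crmp1 was lower in the transgenic library in all 7 Omp groups, with intervals apart in 3 of them.

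Gap43, which the gate holds under 500 CPM in each of these cells, stood at 42.4 CPM (38.3 to 46.8) in transgenic Omp-high cells against 24.2 CPM (20.4 to 28.5), a log2 ratio of 0.80 (0.53 to 1.10). By mature cluster it was 48.5 against 16.2 CPM in cluster 0, 15.1 against 5.76 CPM in cluster 1 and 43.9 against 12.7 CPM in cluster 2, but 128 against 126 CPM in cluster 3. Gap43 was also higher in transgenic free RNA, at 202 against 81.0 CPM, and the part of free RNA in this difference was not tested. With free RNA taken off at 5% of each sum, the ratio was 0.67. Stmn1 (0.33) and Stmn2 (0.36) were higher as well, with intervals clear of 0, and Stmn4 was lower (-0.23). Tubb3 did not differ beyond counting error, at -0.02 (-0.10 to 0.06). In Omp-high cells the summed Bowman's gland markers stood at 43.6 and 213 CPM, the neutrophil ones at 5.84 and 74.8 CPM and the erythroid ones at 974 and 395 CPM, and their part in these differences was not tested.

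**Figure D4:**
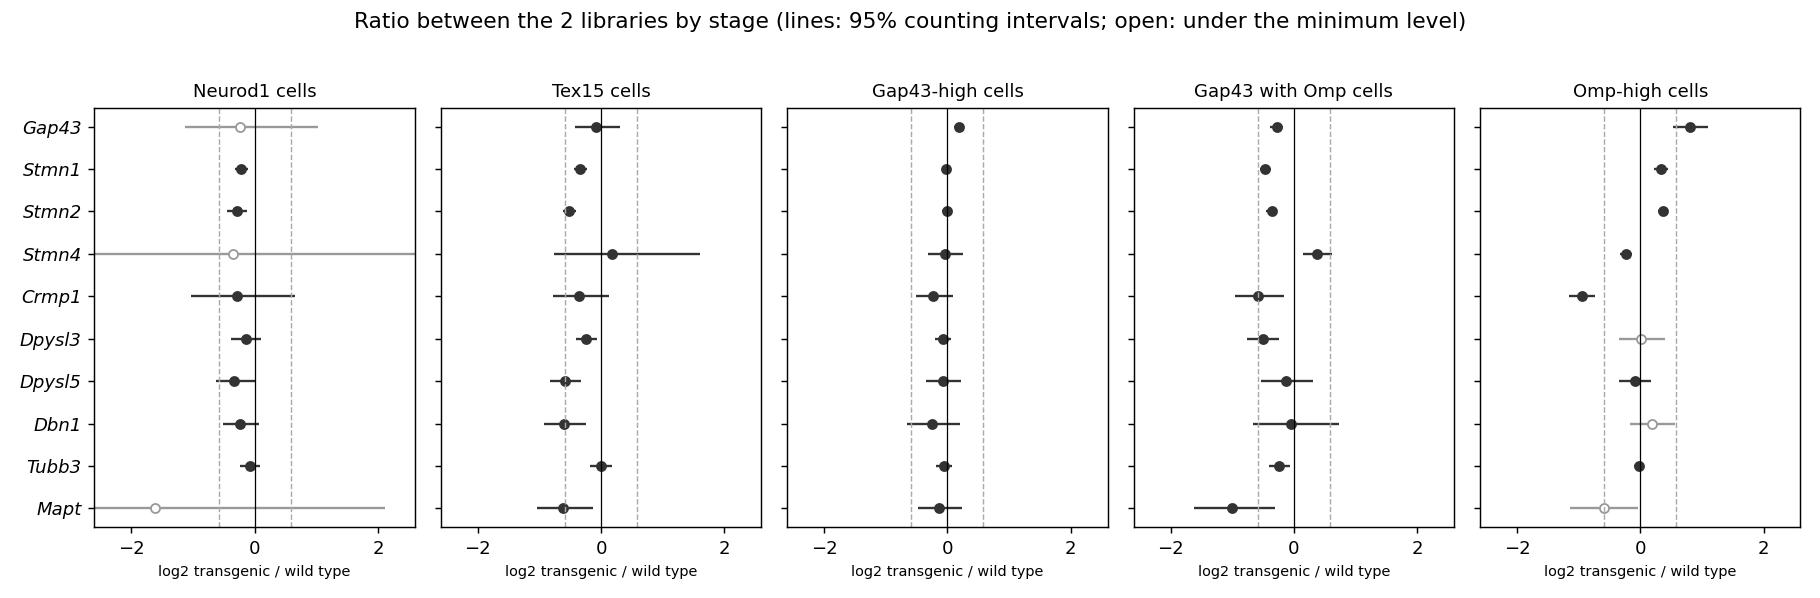
Log2 ratio of transgenic over wild-type level (horizontal axis) for each gene (vertical axis) in the 5 stages, with 95% counting intervals, dashed lines at 1.5-fold, and open points for genes under the minimum level. Lines that reach the edge go beyond it. In Gap43-high cells the points lie between -0.25 and 0.19, and in Omp-high cells Crmp1 at -0.94 and Gap43 at 0.80 lie outside the dashed lines.

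Within transgenic Omp-high cells, those with at least 5 UMIs of the added transgene feature had Mapt at 4.68 CPM against 7.29 CPM in cells with none, a log2 ratio of -0.54 (-1.81 to 0.40) whose interval held 0. By cluster the Mapt ratio was 0.71 (-0.85 to 2.12) in cluster 1 and -1.82 (-5.47 to -0.34) in the other clusters, and the difference was not tested. In the same cells Dpysl3 (-1.06, interval -1.86 to -0.43), Stmn4 (-0.89, interval -1.08 to -0.72), Tubb3 (-0.70, -0.84 to -0.56) and Stmn1 (-0.58, -0.77 to -0.39) were lower, both in cluster 1 and in the other clusters. The share of all measured genes that were as much lower in these cells was not counted, so these ratios are a description only.

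Free RNA, taken as the barcodes under 100 UMIs, carried all 10 genes in both libraries. Each of the 10 was higher in transgenic than in wild-type free RNA, by 1.44-fold for Stmn4 to 3.88-fold for Dpysl5. Free RNA levels came to 6.08% to 15.8% of the highest stage in the transgenic library and 2.03% to 14.3% of it in the other. For Gap43 it was 202 CPM against 42.4 CPM in transgenic Omp-high cells, so that the mature level lay below free RNA. Stmn4, Crmp1 and Tubb3 were lower in free RNA than in Omp-high cells of both libraries, at 70.0, 24.7 and 193 CPM in transgenic and 48.5, 11.3 and 93.6 CPM in wild-type free RNA. In the wild type the same held for Stmn2, Dpysl5 and Dbn1.

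Outside the neuronal lineage, Mapt, Stmn1, Dbn1, Dpysl3 and, by little, Crmp1 each stood above free RNA in a cell class of both libraries. Mapt stood at 165 CPM (152 to 179) in transgenic and 164 CPM (140 to 192) in wild-type sustentacular-like cells, the supporting cells of the epithelium, which is in the range of its neuronal peak. There Mapt had a UMI in 67.9% and 68.2% of thinned cells, while free RNA held 23.3 and 10.8 CPM. Gap43 in these cells was 186 and 31.4 CPM, below free RNA in both libraries. Omp was 667 and 1055 CPM, against 1201 and 912 CPM in free RNA. In the wild-type ones Tubb3 (157 CPM), Stmn2 (265 CPM), Crmp1 (16.8 CPM), Dpysl5 (53.4 CPM) and Dbn1 (38.8 CPM) stood above free RNA. Free RNA held 93.6, 243, 11.3, 12.1 and 12.1 CPM of these, and Stmn4 was below it. In the transgenic ones Tubb3 (108 against 193 CPM), Stmn2 (242 against 497 CPM) and Dpysl5 were below free RNA. Crmp1 was above it there (26.7 against 24.7 CPM). The part of neuronal RNA in the Mapt level was not tested. Stmn1 stood at 1005 and 962 CPM in ionocyte-like microvillar cells and had a UMI in 97.7% and 91.7% of thinned cells. It reached 1029 CPM in wild-type myeloid progenitor-like cells. Dbn1 stood at 68.9 CPM (51.8 to 89.9) and 65.7 CPM (35.9 to 110) in the ionocyte-like cells, with a UMI in 36.4% and 50% of thinned cells, against 39.7 and 12.1 CPM in free RNA. Dpysl3 was highest outside the lineage in fibroblast-like cells, at 193 and 242 CPM, against 109 and 56.3 CPM in free RNA. It was also above free RNA in sustentacular-like cells (150 and 155 CPM) and in ionocyte-like cells (142 and 117 CPM).

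Relatives of the 10 genes were counted in 7 lists of related genes, as at least 2-fold apart between Gap43-high and Omp-high cells in both libraries. Over all 6456 genes measured in both, 6.32% were higher and 9.63% lower by this rule. Without the 10 genes themselves, 3 of 6 measured growth-associated membrane and signalling genes were higher (Basp1, Marcks and Marcksl1) and 1 was lower. Basp1, a growth cone membrane protein like Gap43, stood at 980 against 23.9 CPM and, in the wild type, at 1106 against 15.3 CPM. Gpm6a, a neuronal membrane glycoprotein, was the lower one, at 13.8 against 274 CPM and 22.4 against 286 CPM. Among the 4 stathmins, Stmn3 joined Stmn1 and Stmn2 with log2 ratios of 1.28 and 1.49. Dpysl2 (CRMP2) was the only measured member of the CRMP list, of 4, that missed 2-fold, at 0.85 and 0.93.

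Tubulins split by isotype, with 3 of 6 measured genes other than Tubb3 higher and 1 lower. Tubb2b stood at 1913 against 38.7 CPM and 2200 against 45.5 CPM, a larger contrast than Tubb3. Tuba4a was lower, at 24.4 against 75.2 CPM and 12.2 against 64.1 CPM. Of 13 measured microtubule-associated and motor genes other than Mapt, 4 were higher (Map2, Dcx, Dclk1 and Kif5c) and Map1a was lower, with log2 ratios of -1.09 and -1.32. All 3 measured intermediate filament genes (Vim, Prph and Ina) were higher, and Prph had unequal ratios of 5.86 and 2.41. Of 19 measured actin genes other than Dbn1, 6 were higher, among them Tmsb10 with ratios of 4.09 and 4.38, while its relative Tmsb4x was within 2-fold at -0.99 and -0.90. The median log2 ratio of the whole lists, the 10 genes included, was lowest for the microtubule-associated genes at 0.45 and 0.61. It was highest for the 3 intermediate filament genes in the transgenic library, at 5.86 against 3.40 in the wild type, where the growth-associated list, which holds Gap43, was highest at 3.87.

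**Figure D5:**
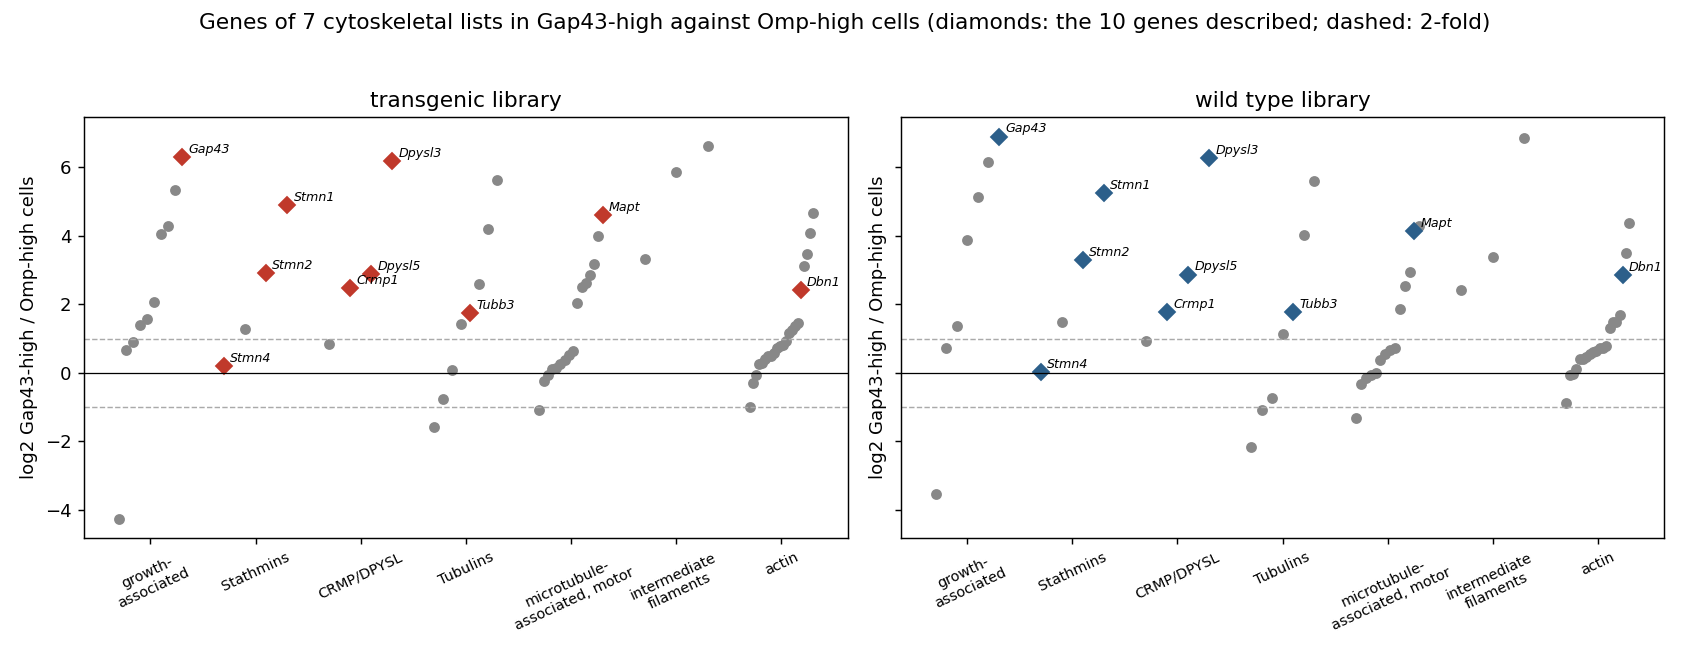
Log2 ratio of Gap43-high over Omp-high cells (vertical axis) for measured genes of 7 lists (horizontal axis) in each library, with diamonds for the 10 genes and dashed lines at 2-fold. Stmn4 lies at 0.20 and 0.01, and Dpysl3 at 6.19 and 6.28.

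The courses of the genes were set side by side by Pearson's r of log2(CPM + 5) over the 10 points of 5 stages and 2 libraries. These points share cells, depth and the gates, so r is a description only. Of the 45 pairs among the 10 genes, 9 had r over 0.9 and 7 were below 0. The highest was 0.975 between Stmn1 and Dpysl3, and the lowest was -0.856 between Stmn4 and Dbn1. Dpysl5, Dbn1 and Tubb3 had pairwise r of 0.93 to 0.95, and Crmp1 and Mapt had 0.96.

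The 4948 genes compared include the 10 genes themselves, which were left out of the ranking. The course of Dpysl3 was most like those of Tmsb10 (r = 0.998), Tubb2b (0.998) and Wasf2 (0.995). For Stmn1 the closest were Tubb2b (0.981), Tmsb10 (0.980) and Gng8 (0.98), and for Stmn2 they included C1d (0.978) and Rab3c (0.977). Gap43 was closest to Ly6h (0.971), Eci2 (0.969) and Txndc17 (0.965). Tubb3 was closest to Fabp5 (0.988), Nudt3 (0.985) and Anapc5 (0.984), each of them highest in Neurod1 or Gap43-high cells. Mapt was closest to Ramac (0.982), Cmtm4 (0.977) and Shb (0.976), which peaked in Tex15 or Gap43-high cells.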

How the data were processed

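Per the labels' protocols, dissociated olfactory epithelium was loaded for 10x Genomics 3′ v3.1 single-cell libraries. The authors deposited raw UMI counts per gene and barcode, unfiltered, and Cell Ranger 6.1.1 and build GRCm39 are named in the submitters' processing notes. The matrix headers name another Cell Ranger version, so which one made the counts is not settled here. The members, lists and tests were chosen with earlier results of these data known.

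A barcode was kept with at least 10% of the 99th percentile of the 5000 largest barcodes (5827.5 transgenic and 5317.7 wild-type UMIs, never under 1000), 500 or more genes and a mitochondrial share up to 10%. Scrublet removed 4 and 2 cells, and doublets may remain. Both libraries were clustered together without the 10 genes, receptors, mitochondrial, ribosomal, immunoglobulin and transgene features (scanpy 1.11.5, 2000 variable genes, 30 components, 15 neighbours, Leiden resolution 1). Clusters were named from marker lists by their log2 excess over the median cluster. That scoring replaced one over all other cells after the clusters were seen, because cluster 3 had stayed unnamed, and leaving clusters 10, 15 and 26 unnamed was also decided then. The text names all 10 members, the 3 genes most like each of 6 of them, and from each list up to 3 genes of largest and 1 of smallest ratio, with all others only where a count of 5 or fewer is spelled out. For Stmn2, 1 of the 3 is not reported here. The splits by Omp, by mature cluster and by transgene within clusters were chosen after seeing the data.

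UMIs were summed over the cells of a stage and library and scaled to CPM. With 1 library per group cells are not replicates, so no test was run. The scripts were tested on simulated counts with known changes.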

Additional observations from a re-analysis of the deposited data

How the results depend on the processing

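No paired analysis was possible because each group has 1 library. The count of member and stage pairs past 1.5-fold between the libraries, 5 of 50 with Gap43 in Omp-high cells among them, was 3 with both gates doubled, 3 without the 5% of cells of highest doublet score, 8 with the gates over all kept cells and 0 at 2-fold. Gap43-high over Neurod1 gave 3 genes higher (5 as reported) and 2 lower (1) in the transgenic library and 2 lower (1) in the wild type with a minimum of 2000 UMIs, and 2 lower in the wild type at 1.5-fold. With the gates over all kept cells, the Tex15 ratios turned to 0.40 for Dbn1 and 1.11 for Mapt; that stage then held 188 transgenic and 60 wild-type cells instead of 100 and 16. Every other count of genes stayed within 1.5 times. In Omp-high cells the library ratio of Crmp1 ran from -1.07 to -0.65 and that of Gap43 from 0.67 to 1.27 over 14 alternatives. Of the single library ratios, 623 stayed in their counting interval, 65 left it and 2 turned; of the stage ratios 669 stayed and 151 left it, and none turned. Leaving out cluster 3, and cells of 50 or more Hbb-bs UMIs, were chosen after seeing the data. The limits on mitochondrial share and doublet score removed cells without new clustering. Stages by clusters gave no Gap43 with Omp stage, so its values have none there. Wild-type stages of 11 to 32 cells limit the values of low genes such as Mapt and Stmn4, and PCR copies, free RNA and doublets are not covered by the intervals.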

Other observations

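In cluster 1, which held 84 of the Omp-high transgenic cells with at least 5 transgene UMIs, Gap43 stood at 36.1 CPM in those cells and at 9.26 CPM in the 182 cells with none, a log2 ratio of 1.93 (1.19 to 2.76). A Gap43 UMI was found in 22 of the 84 and 14 of the 182 cells, and without the cell of most Gap43 UMIs in each group the levels were 32.0 and 7.31 CPM. In the other clusters Gap43 was 69.0 and 79.3 CPM. Stmn2 also had opposite signs, with 0.46 (0.31 to 0.62) in cluster 1 and -0.37 (-0.51 to -0.22) elsewhere. The split was chosen after seeing the data, and the difference between clusters was not tested.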
